A study of Mus musculus with 12 samples.

Results

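The genes described here are the mouse H2 genes of the major histocompatibility complex (MHC) and the genes that load, chaperone or switch on their products. Members were the genes whose name on the array began with H2- or was B2m, Cd74, Tap1, Tap2, Tapbp or Ciita (listed under the older symbol C2ta). Each gene was read from its brightest probe and kept when 3 or more arrays flagged that probe as well above background. Of 40 such genes with a probe, 29 were kept, among 15543 features fitted in all. They comprised 17 class I members, 10 class II members and 2 H2- genes of neither class, H2-Ke2 and H2-Ke6. All 29 were in fact well above background on each of the 12 arrays, and none of them was saturated on any array. The 11 genes not kept were H2-Ea, H2-M1, H2-M9, H2-M10.1, H2-M10.2, H2-M10.3, H2-M10.4, H2-M10.5, H2-M10.6, H2-M11 and H2-T3, each above background on 0 to 2 arrays. H2-Ea, the class II E alpha chain that C57BL/6 mice are known not to express, was above background on 1 array. Nlrc5 and H2-D1 were not analysed here.

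The samples were Treg, regulatory CD4 T cells that hold immune responses in check, sorted from MC38 tumours or from spleen. MC38 is a colon carcinoma line, here grown under the skin of C57BL/6 hosts and taken as established tumours after 2 weeks. Total tumour Treg and spleen Treg came from FoxP3-EGFP reporter mice and were gated as CD45+, CD11b low, CD3+ CD4+ and EGFP+. IL10- and IL10+ tumour Treg came from VERT-X mice, which report Il10 through EGFP, and were gated as CD25+ and CD120b+/low within the same CD4 T cell gate. Each of these 4 groups had 3 arrays, numbered as replicates 1 to 3 and described as separate experiments.

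Several features limit these groups as models. Tumours were pooled before sorting, and the number of mice behind a sample is not given. Spleens were taken from mice without tumours, so tissue and tumour bearing cannot be told apart in the spleen comparisons. The VERT-X groups differed from the other groups in reporter strain and in the surface gate, which was not set on FoxP3. P-values measure the spread between these arrays only. In a sorted bulk sample, fewer cells of a type and less RNA per cell cannot be told apart.

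MHC class I molecules show peptides made inside the cell to CD8 T cells. Their heavy chain pairs with beta-2 microglobulin after the Tap transporter has delivered the peptides. Class II molecules show peptides from internalized protein to CD4 T cells and are typical of B cells, dendritic cells and macrophages; the invariant chain Cd74 guards their groove, H2-DM exchanges its remnant for peptide, and H2-O holds H2-DM back. Ciita is the coactivator that switches on class II genes, and mouse T cells are known to make little class II of their own.

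Levels are log2 of the background-subtracted spot signal minus the 75th percentile of that array, so a level of 0 lies at the 75th percentile. They compare arrays for 1 probe and never one probe with another. Differences are log2 differences from a limma fit over the 12 arrays, given with the standard error (SE). A gene was called, and is said to have risen or fallen, at a Benjamini-Hochberg adjusted p under 0.05 over the 15543 features. The 75th percentile ranged from 98.9 to 645 signal units, and 42.2% to 65.4% of probes per array were well above background. IL10+ replicate 3 was lowest in both measures. The arrays lay on 4 slides: the IL10- arrays with IL10+ replicate 2, IL10+ replicate 1 with total tumour replicates 1 and 2, IL10+ replicate 3 alone, and total tumour replicate 3 with the spleen arrays. The IL10- arrays and IL10+ replicates 2 and 3 were scanned on 1 day, and IL10+ replicate 1 with all total tumour and spleen arrays on another. Il10, the sorted cytokine, lay at -0.50 to 0.39 in IL10-, 3.62 to 5.38 in IL10+, 4.93 to 5.63 in total tumour and -3.66 to 0.79 in spleen Treg. Foxp3, the lineage factor, lay at 2.55 to 4.57 on the 6 VERT-X arrays and was not above background, at -6.62 to -5.83, on the 6 FoxP3-EGFP arrays. Whether the reporter allele alters the stretch of transcript this probe reads was not tested, so the probe does not check the sort of those arrays.

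Among class II genes, 3 fell steeply from spleen to every tumour group, and the others showed smaller differences, several with overlapping groups. In total tumour against spleen Treg, 3 of 10 class II members fell and 0 rose, where 43.0% of all features were called, 22.4% lower and 20.6% higher. The 3 were H2-DMb2, H2-Ob and H2-Oa, which code for an H2-DM beta chain and for both chains of H2-O. In IL10+ tumour against spleen Treg 5 of 10 fell (all features: 51.7% called, 28.6% lower, 23.2% higher), the same 3 with Ciita and H2-DMa. In IL10- tumour against spleen Treg 6 of 10 fell (all features: 49.3% called, 26.0% lower, 23.3% higher), those 5 with H2-Eb1. These 3 comparisons share the spleen arrays, so their counts are not independent of each other. The median class II difference was -0.61, -0.87 and -1.40 in total, IL10+ and IL10- tumour against spleen Treg, beside medians over all features of -0.07, -0.11 and -0.04. Without spleen replicate 1 the IL10+ and IL10- counts were 3 and 4, and without spleen replicate 3 they were 6 and 9. Without IL10- replicate 1 the IL10- count was 4, and with slide as a fixed block both counts were 3.

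**Figure D1:**
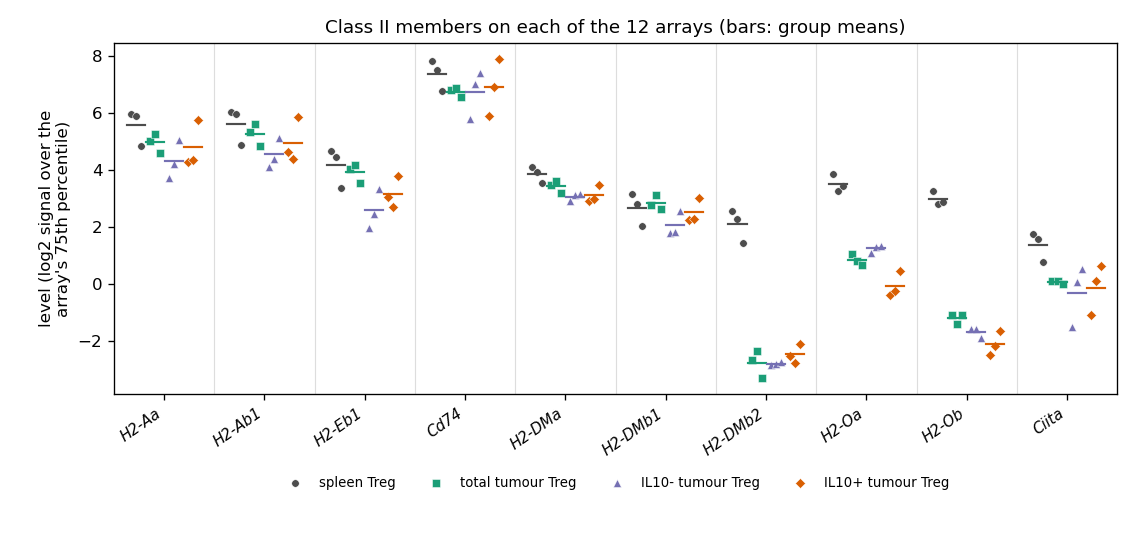
Levels of the 10 class II members on each of the 12 arrays (y axis, log2 signal over the array's 75th percentile), with 1 symbol per array in replicate order and a bar at each group mean. H2-DMb2, H2-Oa and H2-Ob on the 3 spleen arrays lie above all 9 tumour arrays, whereas H2-Aa, H2-Ab1, Cd74 and H2-DMb1 overlap between spleen and tumour.

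Promoter sequences of 6 class II genes are shown because they place the steeply lower genes beside neighbours with smaller differences. Each is the 170 bases before the RefSeq start in GRCm38.p6, 5′ to 3′ on the gene's strand. Capitals mark ATTGG, the core of the Y box, and AGNAAC, a core of the X box, where the latter ends within 40 bases of a following ATTGG. Both boxes are known parts of class II promoters, bound by NF-Y and by the RFX complex that recruits Ciita. The AGNAAC core was chosen after these sequences had been seen.
H2-Ob, chr17:34238735-34238904, plus strand: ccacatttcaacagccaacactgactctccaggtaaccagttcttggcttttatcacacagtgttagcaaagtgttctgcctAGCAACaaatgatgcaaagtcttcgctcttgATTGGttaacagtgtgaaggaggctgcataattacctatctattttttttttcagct
H2-Oa, chr17:34092209-34092378, plus strand: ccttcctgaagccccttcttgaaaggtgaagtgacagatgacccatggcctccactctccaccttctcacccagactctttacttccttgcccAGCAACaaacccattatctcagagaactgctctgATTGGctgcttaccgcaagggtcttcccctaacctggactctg
H2-DMb2, chr17:34145079-34145248, plus strand: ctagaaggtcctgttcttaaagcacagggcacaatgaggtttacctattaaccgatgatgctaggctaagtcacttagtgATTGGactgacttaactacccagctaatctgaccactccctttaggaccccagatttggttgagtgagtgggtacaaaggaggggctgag
H2-DMb1, chr17:34153021-34153190, plus strand: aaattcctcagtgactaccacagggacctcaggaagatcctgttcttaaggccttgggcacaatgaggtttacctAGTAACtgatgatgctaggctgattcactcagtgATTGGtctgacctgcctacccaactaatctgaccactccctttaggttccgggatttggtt
H2-Aa, chr17:34287824-34287993, minus strand: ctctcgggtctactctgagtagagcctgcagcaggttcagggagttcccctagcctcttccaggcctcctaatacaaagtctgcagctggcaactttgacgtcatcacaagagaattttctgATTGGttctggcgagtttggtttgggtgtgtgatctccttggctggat
H2-Eb1, chr17:34305697-34305866, plus strand: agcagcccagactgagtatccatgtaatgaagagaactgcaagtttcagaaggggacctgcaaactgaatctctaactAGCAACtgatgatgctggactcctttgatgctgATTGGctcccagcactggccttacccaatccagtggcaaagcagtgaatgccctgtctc

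Of the 29 members, 19 had a promoter window of 300 bases in the RefSeq table: 10 class I, 7 class II and both genes of neither class. Some genes had more than 1 window, giving 11 class I and 8 class II windows. ATTGG on the gene's strand stood in 7 of 8 class II windows and 8 of 11 class I windows, against 22.1% of 32851 windows of that length. Counted on both strands, ATTGG stood in 37.4% of all windows and AGNAAC in 48.1%. The pair, AGNAAC followed within 40 bases by ATTGG on the gene's strand, stood in 4 of 8 class II windows and 0 of 11 class I windows, against 1.0% of all windows. Since AGNAAC was chosen after class II sequences had been seen, the shares of the pair do not test it. In H2-Ob, H2-Oa, H2-DMb1 and H2-Eb1, 25, 28, 28 and 27 bases lay between the cores. The pair was thus present in genes that fell steeply and in genes with smaller differences. The H2-DMb2 and H2-Aa windows held ATTGG without a preceding AGNAAC, which says only that those letters are not in the window.

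H2-DMb2, an H2-DM beta chain (probe at chr17:33758478-33758538, mm8 as the files give it), showed levels of 2.57, 2.29 and 1.46 on spleen arrays 1 to 3. Its tumour levels were -2.64, -2.32 and -3.29 in total, -2.84, -2.78 and -2.73 in IL10- and -2.52, -2.74 and -2.09 in IL10+ tumour Treg. All 9 tumour arrays lay below the 3 spleen arrays, and the 3 tumour groups lay close together. H2-DMb2 fell by 4.86 ± 0.32 (SE) in total tumour Treg, 29.1-fold, with an adjusted p of 5.14e-06 in limma. The falls in IL10- and IL10+ tumour Treg were 29.7-fold and 23.6-fold (adjusted p 3.98e-06 and 4.89e-06).

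H2-Ob, the beta chain of the H2-DM inhibitor H2-O (probe at chr17:33852080-33852311, mm8), lay at 3.26, 2.80 and 2.88 in spleen. In the tumour it lay at -1.08, -1.41 and -1.08 in total, -1.57, -1.57 and -1.87 in IL10- and -2.47, -2.15 and -1.63 in IL10+ Treg. Spleen and tumour again did not overlap. The fall was 4.17 ± 0.23, or 18-fold, in total tumour Treg (adjusted p 2.16e-06), 25.1-fold in IL10- (8.37e-07) and 33.4-fold in IL10+ tumour Treg (5.61e-07).

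H2-Oa, the alpha chain of H2-O (probe at chr17:33705542-33705601, mm8), lay at 3.88, 3.27 and 3.44 in spleen and at 1.05, 0.81 and 0.67 in total tumour Treg. IL10- tumour Treg had levels of 1.09, 1.33 and 1.35 and IL10+ tumour Treg -0.36, -0.25 and 0.47. All 9 tumour arrays lay below the spleen arrays, and the 3 IL10+ arrays lay below the 6 other tumour arrays. It fell 6.44-fold in total (adjusted p 3.02e-05), 4.83-fold in IL10- (6.3e-05) and 11.9-fold in IL10+ tumour against spleen Treg (4.2e-06). A dimmer H2-Oa probe gave differences of -2.76, -2.07 and -3.23 in the same order.

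These 3 genes were called lower in all 3 tumour groups under each of the 25 alternative settings tried. The size of the fall was less stable. H2-DMb2 differences ranged from -5.40 to -3.25 (total), -5.48 to -3.48 (IL10-) and -5.44 to -2.62 (IL10+). For H2-Ob the ranges were -4.26 to -3.39, -5.23 to -3.73 and -5.45 to -3.25, groups ordered alike. H2-Oa gave -2.86 to -2.51, -2.75 to -2.10 and -4.15 to -3.40. The fold changes printed above for H2-DMb2 and H2-Ob thus depended on the setting. Total tumour replicate 3 shared its slide with the 3 spleen arrays, and on that slide H2-DMb2, H2-Ob and H2-Oa differed by -5.40, -4.06 and -2.86. The IL10- and IL10+ groups shared no slide with spleen; with slide as a fixed block the IL10+ differences were -5.44, -5.29 and -4.15 and the IL10- differences -5.48, -4.81 and -2.65, all called.

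Ciita, the class II coactivator (probe at chr16:10439788-10439847, mm8), lay at 1.75, 1.59 and 0.78 in spleen, 0.12, 0.10 and 0.00 in total, -1.49, 0.06 and 0.54 in IL10- and -1.08, 0.12 and 0.63 in IL10+ tumour Treg. The spleen arrays lay above all tumour arrays, but the VERT-X groups were wide because their replicate 1 was low. The difference from spleen was -1.30 ± 0.55 in total tumour Treg (adjusted p 0.0827, not called). Ciita fell 3.17-fold in IL10- (0.0291) and 2.80-fold in IL10+ tumour Treg (0.0447). The IL10+ call held in 10 of 25 settings. It was lost on leaving out IL10+ replicate 1 or 2 (-1.0 and -1.60), spleen replicate 1 or 2 (-1.29 and -1.38), and also IL10- replicate 2 or any total tumour array (-1.48 each, adjusted p 0.0547 to 0.0612). The IL10- call held in 17 of 25 and was lost without IL10- replicate 1 (-1.07) or spleen replicate 1 or 2 (-1.48 and -1.56). With slide as a fixed block the differences were -2.56 in IL10+ and -2.97 in IL10- tumour Treg, neither called (adjusted p 0.152 and 0.184). The total tumour difference was called in 3 of 25 settings, 1 of them without IL10- replicate 1 (adjusted p 0.0319). The others were the fit of only the arrays of the 2 groups compared and the replicate block on those arrays. The smallest adjusted p in limma was 0.00942.

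The classical class II chains were less clearly separated. H2-Aa, the A alpha chain (probe at chr17:33892680-33892739, mm8), lay at 5.97, 5.88 and 4.85 in spleen, 5.04, 5.27 and 4.60 in total, 3.72, 4.22 and 5.06 in IL10- and 4.29, 4.36 and 5.77 in IL10+ tumour Treg. H2-Ab1, its beta chain partner (probe at chr17:33872973-33873032, mm8), lay at 6.04, 5.96 and 4.87 in spleen, 5.34, 5.60 and 4.86 in total, 4.13, 4.41 and 5.13 in IL10- and 4.63, 4.40 and 5.88 in IL10+ tumour Treg. In both genes spleen replicate 3 fell among the tumour arrays, and IL10+ replicate 3 reached the spleen range. Differences from spleen were -0.59, -1.23 and -0.76 for H2-Aa and -0.36, -1.07 and -0.66 for H2-Ab1 in total, IL10- and IL10+ tumour Treg, none called (adjusted p 0.0572 to 0.57). In a limma fit of all probes, a dimmer H2-Aa probe was called in IL10- tumour Treg (-1.43, adjusted p 0.0178). The dimmest H2-Ab1 probe was called there too (-1.29, 0.0382), and the other dimmer ones were not (-0.97 and -1.12). None of these dimmer probes was called in total or IL10+ tumour against spleen Treg. On the brightest probes the IL10- difference was called without spleen replicate 3 (H2-Aa -1.59, H2-Ab1 -1.45) or without IL10+ replicate 3 (-1.23 and -1.07), and for H2-Aa without IL10- replicate 3 (-1.59). The IL10- difference of both genes was also called with the submitters' value table, and that of H2-Aa with quantile normalization and the mean of all probes. The IL10+ difference of H2-Aa was called without IL10+ replicate 3 (-1.24), and that of both genes under normexp background correction.

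H2-Eb1, the E beta chain (probe at chr17:33922800-33923261, mm8), lay at 4.66, 4.47 and 3.39 in spleen, 4.05, 4.20 and 3.56 in total, 1.98, 2.47 and 3.34 in IL10- and 3.07, 2.69 and 3.78 in IL10+ tumour Treg. The 3 IL10- arrays lay below the 3 spleen arrays, the nearest pair almost touching. H2-Eb1 fell by 1.57 ± 0.44 in IL10- tumour Treg, 2.98-fold (adjusted p 0.0136). The differences of -0.24 in total and -0.99 in IL10+ tumour Treg were not called (0.7 and 0.083). The IL10- call held in 19 of 25 settings and was lost without IL10- replicate 1 (-1.27) or spleen replicate 1 (-1.33), and with scan day (-1.75, adjusted p 0.13) or slide (-1.77, 0.317) as a fixed block. The IL10+ difference was called without IL10+ replicate 3 (-1.29) or spleen replicate 3 (-1.38), and under normexp background correction.

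Cd74, the invariant chain, lay at 7.83, 7.50 and 6.78 in spleen, 6.81, 6.88 and 6.57 in total, 5.80, 7.02 and 7.42 in IL10- and 5.90, 6.93 and 7.89 in IL10+ tumour Treg. The highest and 2 lowest of all 12 arrays were VERT-X arrays, and the 4 groups overlapped. Its differences from spleen of -0.62, -0.62 and -0.46 in total, IL10- and IL10+ tumour Treg were not called (adjusted p 0.382, 0.351 and 0.49).

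H2-DMa, the alpha chain of the peptide exchanger (probe at chr17:33747809-33748372, mm8), lay at 4.11, 3.94 and 3.54 in spleen, 3.49, 3.62 and 3.19 in total, 2.92, 3.13 and 3.17 in IL10- and 2.92, 2.98 and 3.46 in IL10+ tumour Treg. Both VERT-X groups lay below spleen, whereas total tumour Treg overlapped with it. H2-DMa fell 1.73-fold in IL10- (adjusted p 0.00995) and 1.67-fold in IL10+ tumour Treg (0.013), and its difference of -0.43 in total tumour Treg was not called (0.122). The IL10+ call was lost without spleen replicate 1 (-0.62, adjusted p 0.0525). With slide as a fixed block neither was called (IL10+ -1.30, adjusted p 0.0579, and IL10- -1.21, 0.13).

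H2-DMb1, a near-identical neighbour of H2-DMb2 (probe at chr17:33767055-33767114, mm8), lay at 3.16, 2.81 and 2.05 in spleen, 2.78, 3.14 and 2.64 in total, 1.80, 1.84 and 2.58 in IL10- and 2.27, 2.29 and 3.01 in IL10+ tumour Treg. These groups overlapped, and differences of 0.18, -0.60 and -0.15 were not called (adjusted p 0.707, 0.165 and 0.729). The IL10- difference was called without spleen replicate 3 (-0.91, adjusted p 0.0476) and with the mean of all probes. A second H2-DMb1 probe disagreed, with differences from spleen of -1.07, -1.75 and -1.38 in total, IL10- and IL10+ tumour Treg and adjusted p of 0.0243, 0.00161 and 0.00561 in a fit of all probes. The 2 copies are similar enough that the transcript behind either probe is uncertain.

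Within a group the class II members tended to be high or low on the same arrays. All 10 were highest on spleen replicate 1 and on IL10+ replicate 3 of their groups, and 9 of 10 were highest on IL10- replicate 3. Lowest values fell on IL10- replicate 1 in 9, spleen replicate 3 in 8, total tumour replicate 3 in 9 and IL10+ replicate 1 in 7 of 10 members. The class II median ran from 3.42 to 4.0 on spleen, 2.92 to 3.38 on total tumour, 2.49 to 3.24 on IL10+ and 1.89 to 2.88 on IL10- arrays. The IL10+ array with the highest class II levels was the array with the lowest overall signal; the part of signal strength in this was not tested.

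B cell markers moved with the class II genes that fell. All 10 of 10 B cell markers fell in each tumour group against spleen, and all 10 were above background on every spleen array against 2 to 6 on the tumour arrays. Of these, Cd79a, Pax5, Cr2 and Fcer2a passed the filter through the 3 spleen arrays alone, so they could only fall. Their summed level was 5.62 to 6.54 on spleen and 1.34 to 2.35 on tumour arrays. Cd79b, part of the B cell receptor, averaged 5.21 in spleen, 1.40 in total, 1.55 in IL10- and 0.87 in IL10+ tumour Treg. Blnk, a B cell adaptor, averaged 2.14, -0.12, 0.08 and 0.42 in the same order, and both were above background on all 9 tumour arrays. Ms4a1, a B cell surface marker, was above background on 2 of 9 tumour arrays and Cd79a, part of the B cell receptor, on 0 of 9, and both on every spleen array. On spleen replicate 1, where class II was highest, the summed B cell level was also highest. The plasma cell and macrophage sums peaked there too (6.94 and 6.72). In IL10-, IL10+ and total tumour Treg the class II median peaked on replicates 3, 3 and 2. In these groups the macrophage sum peaked on the same arrays (9.21, 9.69 and 9.40). The B cell sum peaked on replicates 2, 3 and 1 (2.35, 2.12 and 2.04).

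Plasma cell markers fell in 3 of 4 cases in each tumour group, with summed levels of 4.71 to 6.94 on spleen and -1.05 to 0.57 on tumour arrays; Mzb1 averaged 3.31 in spleen and was above background on 2 of 9 tumour arrays, Jchain on 0 of 9, whereas Sdc1 rose in both VERT-X groups. Jchain and Tnfrsf17 passed the filter through the spleen arrays alone, so they could only fall. Between spleen and tumour, macrophage and monocyte markers, from cells that also carry class II, moved the other way. Of 15, 13 rose in each tumour group, and their summed level was 8.45 to 9.69 on tumour and 5.47 to 6.72 on spleen arrays. Apoe averaged 4.31 in spleen and 7.29, 7.60 and 7.94 in total, IL10- and IL10+ tumour Treg, and Lyz2 averaged 2.60 and 6.54, 6.29 and 6.71.

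Of 8 dendritic cell markers fitted, 1 rose and 3 fell in each tumour group, with summed levels of 0.91 to 1.60 on tumour and -0.05 to 1.63 on spleen arrays. Of the 2 brightest, Itgax averaged -0.23 in spleen and -0.06 to 0.42 in the tumour groups, and Batf3 -1.31 and -1.52 to -1.41. Dimmer markers, named after their values were seen, went both ways. Zbtb46 averaged -4.14 in spleen and -2.06 to -0.38 in the tumour groups, and Flt3 -2.33 and -5.28 to -4.62. Fibroblast markers rose in 7, 7 and 6 of 8 cases in total, IL10- and IL10+ tumour Treg, from summed levels of -1.51 to 1.61 on spleen to 6.33 to 7.99 on tumour arrays. Dcn and Col3a1, matrix genes, were above background on all 9 tumour arrays and on 1 spleen array each. The fibroblast markers Lum, Pdgfrb and Pdgfra and the macrophage marker Trem2 passed the filter through tumour arrays alone. The dendritic cell marker Siglech passed it through spleen arrays alone, so the filter fixed the direction of these genes. Of 3 neutrophil markers fitted 1 rose, Csf3r in IL10+ tumour Treg, from -4.75 in spleen to -2.58, and S100a9 averaged -1.18 in spleen and -2.17 there. Of 7 T cell and Treg markers, 1 rose and 0 fell in total tumour against spleen Treg, and 2 rose and 2 fell in each VERT-X group, with median differences of -0.32 in total, 1.10 in IL10- and 0.82 in IL10+ tumour Treg. Cd3d and Cd3g, chains of the T cell receptor complex, fell in the VERT-X groups, by 0.79 and 0.95 in IL10- and by 0.73 and 0.88 in IL10+ tumour Treg. Ctla4, an inhibitory receptor of Treg named here after its values were seen, rose from 1.79 in spleen to between 5.03 and 5.56 in the 3 tumour groups. Its spleen arrays were wide, from -0.94 to 3.25. Il2ra, also named after its values were seen, ran from -3.95 to 1.23 in spleen, above background on 2 of 3 arrays. Spleen replicate 2 had 5 of these 7 markers above background, the other spleen arrays 6, and its Il10 was lowest (-3.66). Whether the sort of that array differed was not tested. Beside Ctla4, the gene that rose in the VERT-X groups was Foxp3, and the list medians include it. Its probe was not above background on the FoxP3-EGFP arrays, so tumour and reporter strain cannot be told apart in this difference. Cd3e and Cd4 were not called, with differences of 1.10 and 0.78 in IL10- and 0.82 and 0.77 in IL10+ tumour Treg. Their arrays were wide: Cd3e ran from 1.97 to 5.60 in IL10- and from 1.64 to 5.78 in IL10+ tumour Treg. Most class I and class II members were lowest on replicate 1 of the IL10- and IL10+ groups. These arrays had the lowest T cell sums of their groups (7.47 and 7.37) and the highest fibroblast sums (7.66 and 7.99). The part of these other cell types' RNA in the class I and class II levels and differences was not tested.

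**Figure D2:**
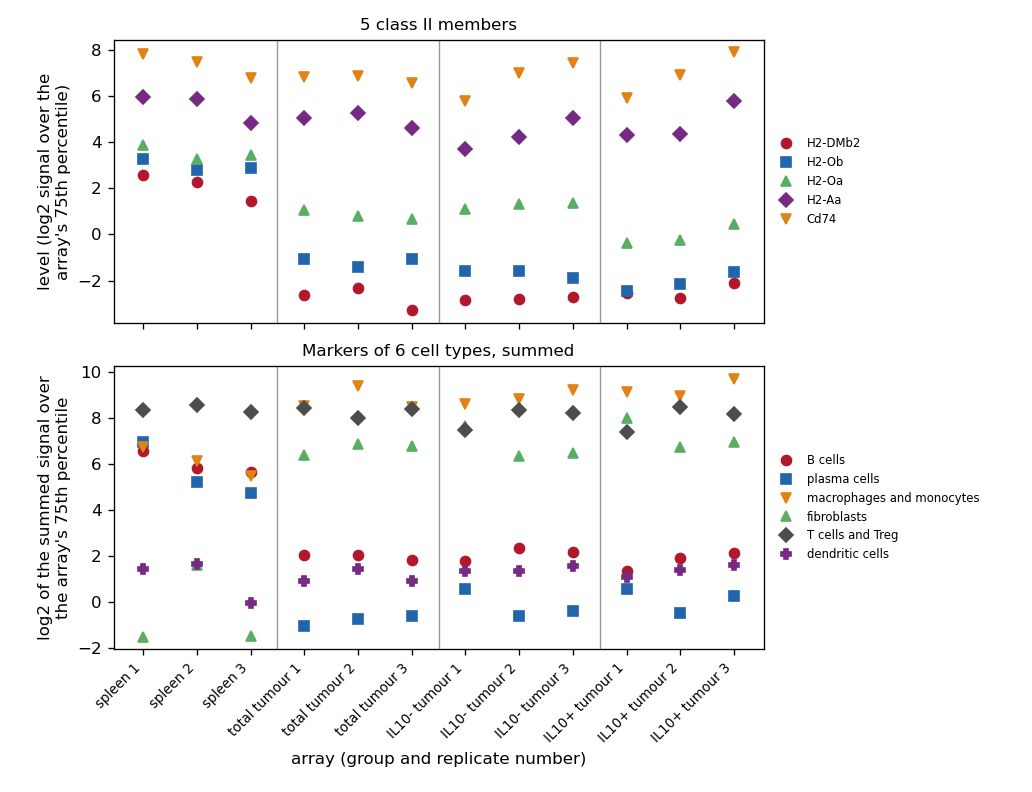
Upper panel: levels of 5 class II members on each array (log2 signal over the array's 75th percentile). Lower panel: log2 of the summed signal of marker genes of 6 cell types on the same arrays; B cell and plasma cell markers lie at 4.71 to 6.94 on the spleen arrays and at -1.05 to 2.35 on the tumour arrays, and macrophage markers lie higher on tumour than on spleen arrays.

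Few class I genes were called between tumour and spleen, and H2-Q8 alone was called in all 3 comparisons. In total tumour against spleen Treg 2 of 17 class I members rose, H2-Q8 and B2m, and 0 fell. In IL10+ and in IL10- tumour against spleen Treg H2-Q8 rose and H2-M3 fell, so 2 of 17 were called in each. All 3 counts lay below the background shares of 43.0%, 51.7% and 49.3% given above. Median class I differences were 0.16, -0.03 and 0.06 in total, IL10+ and IL10- tumour Treg.

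**Figure D3:**
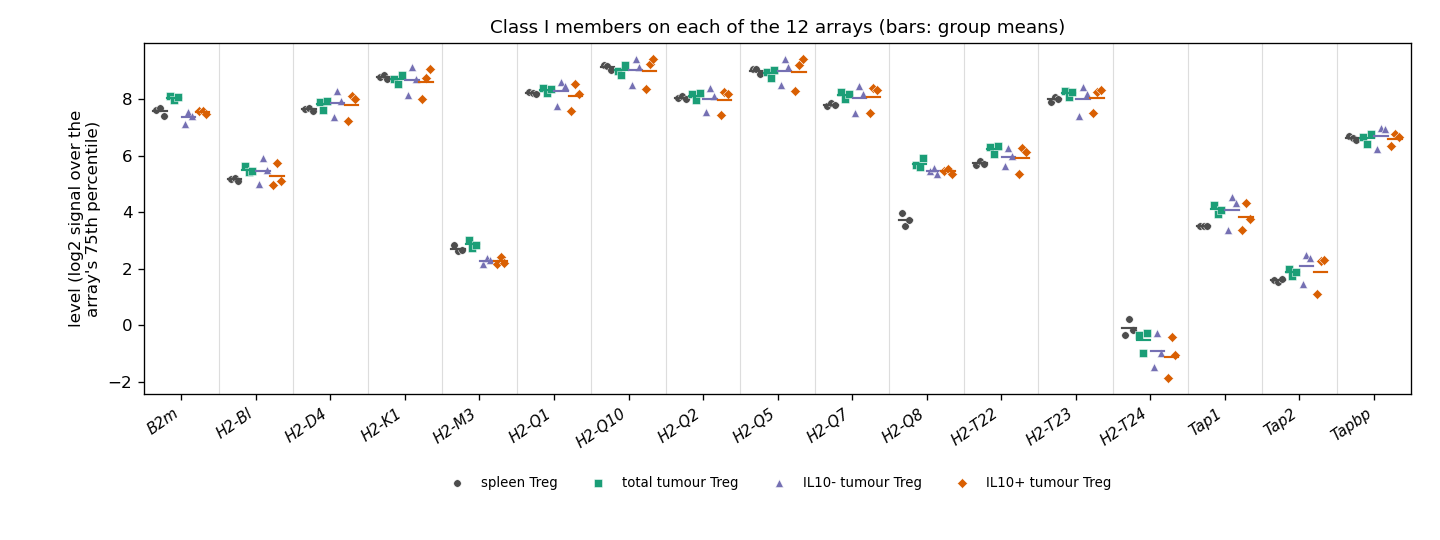
Levels of the 17 class I members on each of the 12 arrays (y axis, log2 signal over the array's 75th percentile), 1 symbol per array in replicate order with a bar at the group mean. H2-Q8 on the 9 tumour arrays lies above the 3 spleen arrays, and most other members overlap.

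H2-Q8, a nonclassical class I gene of the Q region (probe at chr17:35003497-35003556, mm8), lay at 3.97, 3.53 and 3.72 in spleen, 5.67, 5.59 and 5.93 in total, 5.48, 5.58 and 5.35 in IL10- and 5.48, 5.53 and 5.36 in IL10+ tumour Treg. Every tumour array was above every spleen array, and both VERT-X groups covered nearly the same range. It rose by 1.99 ± 0.15 in total, 3.98-fold (adjusted p 1.29e-05), 3.32-fold in IL10- (2.17e-05) and 3.29-fold in IL10+ tumour Treg (1.88e-05). On the slide shared with spleen, total tumour replicate 3 was higher by 2.19. Under normexp background correction these differences were 1.71, 1.62 and 0.42 and none was called (adjusted p 0.0587, 0.064 and 0.522); the other 24 settings kept all 3 calls. Class I genes share near-identical stretches, so the H2 copy behind a class I probe is uncertain.

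B2m, the light chain of every class I molecule (probe at chr2:121844106-121844165, mm8), lay at 7.64, 7.68 and 7.43 in spleen, 8.13, 8.0 and 8.08 in total, 7.11, 7.55 and 7.43 in IL10- and 7.58, 7.59 and 7.48 in IL10+ tumour Treg. Total tumour Treg lay above all 9 other arrays, and the VERT-X groups overlapped with spleen. B2m rose 1.40-fold in total tumour Treg (0.48 ± 0.14, adjusted p 0.0223), with differences of -0.22 in IL10- and -0.03 in IL10+ tumour Treg that were not called (0.231 and 0.862). The call held in 16 of 25 settings and was lost without total tumour replicate 1 (0.45) or 3 (0.48) or spleen replicate 3 (0.40). It was also lost with slide as a fixed block (0.49, adjusted p 0.167), and with the submitters' value table the difference was 0.11 (0.558). Dimmer B2m probes gave 0.97 and -0.31, neither called.

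H2-K1, a classical class I heavy chain (probe at chr17:33609987-33610233, mm8), lay at 8.78, 8.86 and 8.73 in spleen, 8.74, 8.55 and 8.85 in total, 8.17, 9.13 and 8.73 in IL10- and 8.03, 8.76 and 9.09 in IL10+ tumour Treg. The VERT-X groups spanned a wider range than either FoxP3-EGFP group and enclosed both. Its differences from spleen of -0.08, -0.11 and -0.16 in total, IL10- and IL10+ tumour Treg were smaller than the spread between VERT-X replicates.

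H2-M3, which presents formylated peptides (probe at chr17:36882458-36882517, mm8), lay at 2.85, 2.64 and 2.66 in spleen, 3.03, 2.76 and 2.87 in total, 2.17, 2.37 and 2.33 in IL10- and 2.17, 2.44 and 2.22 in IL10+ tumour Treg. The 6 VERT-X arrays lay below the 6 FoxP3-EGFP arrays. H2-M3 fell 1.36-fold in IL10+ (adjusted p 0.0211) and 1.35-fold in IL10- tumour Treg (0.0258) against spleen. These small falls held in 15 and 13 of 25 settings. The IL10+ call was lost without IL10+ replicate 1 (-0.39) or 3 (-0.42) or spleen replicate 1 (-0.38), and the IL10- call without IL10- replicate 1 (-0.37) or 3 (-0.45) or spleen replicate 1 (-0.36) or 3 (-0.46). Neither was called with slide as a fixed block (-0.58 and -0.72). A dimmer H2-M3 probe gave -0.38 in IL10+ and -0.40 in IL10- tumour Treg. It was not called in a limma fit of all probes (adjusted p 0.123 and 0.109).

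The peptide transporter showed the widest spread among class I members with a loading role. Tap1, a transporter subunit, lay at 3.53, 3.51 and 3.52 in spleen, 4.26, 3.95 and 4.10 in total, 3.37, 4.56 and 4.34 in IL10- and 3.39, 4.33 and 3.76 in IL10+ tumour Treg. Tap2, its partner, lay at 1.62, 1.52 and 1.66 in spleen, 2.01, 1.77 and 1.89 in total, 1.48, 2.51 and 2.37 in IL10- and 1.11, 2.29 and 2.30 in IL10+ tumour Treg. For both subunits total tumour Treg lay above spleen, and replicate 1 of each VERT-X group lay below it. Differences from spleen ranged from 0.31 to 0.59 for Tap1 and from 0.28 to 0.52 for Tap2 and were not called. Tap1 in IL10- tumour Treg was called without IL10- replicate 1 (0.93, adjusted p 0.0146). In total tumour Treg, Tap1 was called in 2 of 25 settings, with a smallest adjusted p of 0.00861 in limma. These were the fit of only the arrays of the 2 groups compared and the replicate block on those arrays. Tapbp, which tethers the heavy chain to the transporter, lay at 6.72, 6.62 and 6.56 in spleen, 6.66, 6.44 and 6.77 in total, 6.25, 6.98 and 6.94 in IL10- and 6.34, 6.76 and 6.67 in IL10+ tumour Treg, with all groups overlapping.

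The remaining 10 class I members were H2-Bl, H2-D4, H2-Q1, H2-Q2, H2-Q5, H2-Q7, H2-Q10, H2-T22, H2-T23 and H2-T24. On their brightest probes they were not called in any comparison. These differences from spleen ran from -1.01 (H2-T24 in IL10+ tumour Treg, adjusted p 0.0588) to 0.51 (H2-T22 in total tumour Treg, 0.123). The H2-T22 difference was called without IL10+ replicate 1 (adjusted p 0.0389), and that of H2-T24 without IL10- replicate 1 or 2 (-1.01 each) or IL10+ replicate 2 (-1.36). With scan day as a fixed block both were called too, and H2-T24 also with the replicate block. With only the arrays of the 2 groups compared, H2-T22 and H2-Bl were called in total tumour Treg. Under normexp H2-D4, H2-Q1, H2-Q2, H2-Q5 and H2-Q10 were called lower in IL10+ tumour Treg. Some dimmer probes were called against spleen in a limma fit of all probes. An H2-Q1 probe differed by -0.92, -1.40 and -1.61 in total, IL10- and IL10+ tumour Treg (adjusted p 0.0267, 0.00273 and 0.00116). An H2-T22 probe differed by 0.55 in total tumour Treg (0.042). Separate H2-Q10 probes differed by -1.42 in total (0.0446) and -1.64 in IL10+ tumour Treg (0.0207). The other dimmer probes fitted were not called. Class I members also shared low and high arrays: 16 of 17 were lowest on IL10- replicate 1, 15 on IL10+ replicate 1 and 17 on total tumour replicate 2, and 17 were highest on IL10- replicate 2.

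Of the genes of neither class, H2-Ke6, a steroid dehydrogenase gene within the H2 complex (probe at chr17:33637877-33637936, mm8), lay at 3.96, 4.20 and 3.88 in spleen, 2.64, 2.43 and 2.83 in total, 2.09, 2.59 and 2.34 in IL10- and 1.73, 2.26 and 2.31 in IL10+ tumour Treg. It fell 2.60-fold in total (adjusted p 0.000553), 3.19-fold in IL10- (0.000133) and 3.77-fold in IL10+ tumour Treg (5.33e-05), with no overlap with spleen. H2-Ke2, a prefoldin subunit gene now named Pfdn6, averaged 3.73 in spleen and 3.48 to 3.67 in the tumour groups and was not called.

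**Figure D4:**
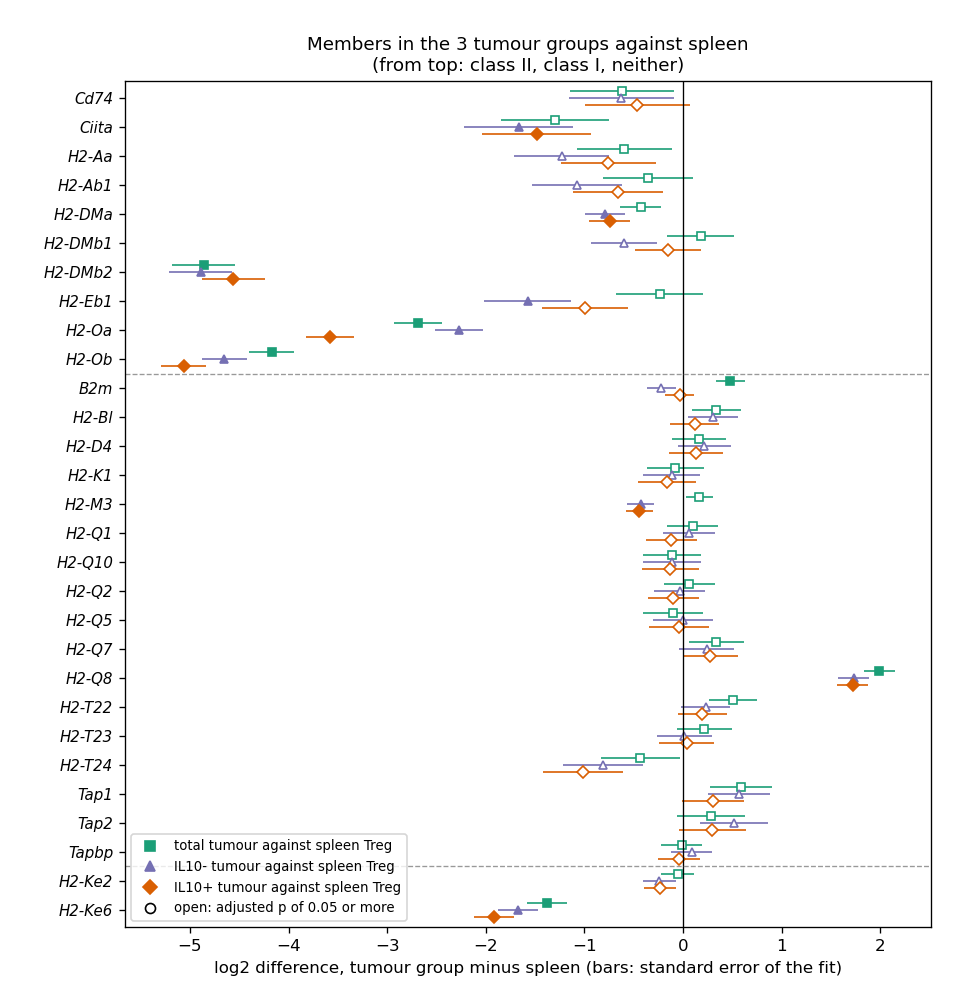
Log2 differences of the 29 members from spleen in the 3 tumour groups (x axis; bars are the standard error of the limma fit, filled symbols are called at an adjusted p under 0.05). H2-DMb2, H2-Ob and H2-Oa lie between -5.06 and -2.27, H2-Q8 between 1.72 and 1.99, and most other class I members near 0.

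Between IL10+ and IL10- tumour Treg no member was called by limma, where 0.0515% of all features were; 0 of 17 class I and 1 of 10 class II members had an unadjusted p under 0.05, beside 728 of the 15543 features, a like share. Il10 itself, the gene the sort reported, differed by 4.63 ± 1.01 (24.8-fold) without being called (adjusted p 0.343), so a lack of calls in this comparison does not show that levels were alike. The member under 0.05 was H2-Oa, at -0.36, -0.25 and 0.47 in IL10+ against 1.09, 1.33 and 1.35 in IL10- tumour Treg. The groups did not overlap, and H2-Oa was lower in IL10+ by a log2 difference of -1.30 ± 0.24 (2.47-fold, unadjusted p 0.000328), but its adjusted p of 0.212 missed the threshold. Over the 25 alternatives the difference ranged from -1.56 to -1.14 and the adjusted p from 0.054 to 0.916. On the slide that held IL10+ replicate 2 with the 3 IL10- arrays, the difference was -1.50. For the other 9 class II members the differences ran from -0.41 for H2-Ob to 0.58 for H2-Eb1, and the class II median was 0.26 beside -0.04 over all features. Macrophage and monocyte markers were higher in IL10+ than in IL10- tumour Treg in 15 of 15 cases, with a median difference of 0.43 and 0 called, and class II processing genes in 8 of 8 (median 0.34, 0 called). The summed macrophage level was 8.95 to 9.69 on IL10+ and 8.61 to 9.21 on IL10- arrays; its part in the class II median was not tested.

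Against total tumour Treg, no member was called in IL10+ (0.180% of all features called) or IL10- tumour Treg (0.0515%), in comparisons that share the total tumour arrays. At an unadjusted p under 0.05 there were 2 class I and 2 class II members in each, where 2603 and 2404 of the 15543 features were, a share close to that of the members. For IL10+ these were B2m (-0.51, adjusted p 0.14), H2-M3 (-0.61, 0.0991), H2-Ob (-0.89, 0.115) and H2-Oa (-0.89, 0.133). For IL10- they were B2m (-0.70, 0.0835), H2-M3 (-0.59, 0.0999), H2-Eb1 (-1.34, 0.191) and H2-DMb1 (-0.78, 0.308). On the slide that held IL10+ replicate 1 with total tumour replicates 1 and 2, the differences were -0.48 for B2m, -0.72 for H2-M3, -1.23 for H2-Ob and -1.29 for H2-Oa. In each of these comparisons reporter strain, gate and Il10 cannot be told apart. IL10- tumour Treg shared neither slide nor scan day with total tumour Treg, so these cannot be told apart from the group either, and IL10+ tumour Treg shared them through replicate 1 alone.

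Other genes of antigen presentation were read from 4 lists. Of 10 class I processing genes, 2 rose and 0 fell in each tumour group against spleen. Canx, a chaperone that holds new heavy chains, rose by 0.98, 1.27 and 1.11 in total, IL10- and IL10+ tumour Treg. Psme2, a proteasome activator subunit, rose by 0.38 in total tumour Treg (adjusted p 0.027), where Pdia3, an oxidoreductase of peptide loading, differed by 0.42 (0.0541). The other gene called in the VERT-X groups, named after its values were seen, was Calr, a second heavy chain chaperone, which rose by 1.43 in IL10- and 1.28 in IL10+ tumour Treg. The median differences of the list were 0.40, 0.21 and 0.03.

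Of 8 class II processing genes 4, 4 and 5 rose and 1 fell in total, IL10- and IL10+ tumour against spleen Treg, with median differences of 0.77, 0.45 and 0.78. Ctsl, a cathepsin that trims the invariant chain, rose by 3.39, 3.35 and 3.83. Lgmn, a lysosomal endopeptidase, rose by 1.69, 1.93 and 2.29, and Ctsb, a cathepsin, by 0.99, 0.53 and 0.86. The gene that fell, named after its values were seen, was March1, a ubiquitin ligase that removes class II from the surface, with differences of -1.76, -1.66 and -1.49. Macrophage markers rose in the same groups as these proteases, and their part was not tested.

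Of 16 regulators of MHC transcription 4 rose and 6 fell in total, 2 rose and 6 fell in IL10- and 1 rose and 6 fell in IL10+ tumour against spleen Treg, with median differences of -0.14, -0.16 and -0.38. Creb1, which binds class II promoters beside RFX, differed by -1.09, -1.42 and -1.53. The interferon gamma receptor chains went opposite ways: Ifngr1 rose by 1.46, 1.01 and 1.20, and Ifngr2 differed by -1.35, -1.0 and -0.98, all called. Of 6 MHC-like genes fitted outside the complex, 1 rose and 1 fell in total and in IL10-, and 2 rose and 2 fell in IL10+ tumour Treg, with medians of -0.22, 0.16 and 0.26. Procr, the endothelial protein C receptor, averaged -0.90, -2.01 and -1.44 in total, IL10- and IL10+ tumour Treg and -4.89 in spleen, where it was above background on 1 of 3 arrays. Cd1d1, which presents lipids, differed by -1.14, -1.73 and -2.08, all called, and the iron regulator Hfe by 0.58, 0.98 and 1.41, called in IL10+ tumour Treg alone of these comparisons (adjusted p 0.00964). In limma none of the genes of the 4 lists was called between IL10+ and IL10- tumour Treg, and 0 had an unadjusted p under 0.05.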

How the data were processed

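Spot signals of 12 1-colour Agilent arrays were deposited as intensity values, background-subtracted by the authors (per the file headers, with Feature Extraction 9.5.3.1); the labels name biotin-labelled cRNA, and how the scanner read that target is unsettled. The series value table, deposited on a log10 scale (column medians of 1.33, normalization not stated), was an alternative. Outlier spots were left out, spots of a probe averaged, and the 75th percentile of the array subtracted from log2 of the signal. One probe per gene, the brightest, was kept if well above background on 3 arrays. limma 3.58.1 in R 4.3.3 fitted 4 groups and 6 contrasts over 15543 features, with Benjamini-Hochberg adjustment; the fit was tested on simulated data. Precision is limited by 3 arrays a group. Probe positions are the files' own (mm8); promoters are from RefSeq (GRCm38.p6). The members, the gene lists and the rule for named genes (classical chains, loading genes, the largest called rise and fall, 3 smallest p per list) were chosen with earlier results of these data known. Cell type lists were T cells, B cells, plasma cells, dendritic cells, macrophages, neutrophils and fibroblasts.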

Additional observations from a re-analysis of the deposited data

How the results depend on the processing

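Of the counts of called members, those of the comparisons within the tumour (0 in each) and the class II count in total tumour against spleen Treg (3) stayed within 1.5 times under all 25 alternatives. Class I in total tumour against spleen Treg (2 called) gave 0 with normexp, 1 with the value table, without a filter, with the mean of probes and with slide as a fixed block, 5 with only the 2 groups' arrays, and 1 to 3 on leaving out single arrays. Class I in IL10+ tumour against spleen Treg (2) gave 8, all lower, with normexp and 1 with quantile normalization, the value table, no filter, the mean of probes, only 2 groups, slide as a fixed block and the replicate block with only 2 groups, and 1 to 3 without single arrays. Class I in IL10- tumour against spleen Treg (2) gave 0 with normexp, 1 with no filter, the mean of probes, only 2 groups, slide as a fixed block and the replicate block with only 2 groups, and 1 to 2 without single arrays. Class II in IL10+ tumour against spleen Treg (5) gave 9 with normexp, 3 with only 2 groups, slide as a fixed block and the replicate block with only 2 groups, and 3 to 7 without single arrays, the 3 without spleen replicate 1. Class II in IL10- tumour against spleen Treg (6) gave 3 with slide as a fixed block and with the replicate block with only 2 groups, and 4 to 9 without single arrays. H2-D4 reversed from 0.13 to -1.16 in IL10+ tumour against spleen Treg with normexp; the cause was not tested. Scan day as a block and the percentile over probes were chosen after seeing the data. Over all features normexp called 1938, 5292 and 2345 in total, IL10+ and IL10- tumour against spleen Treg in place of 6683, 8042 and 7664, slide as a fixed block 3474, 2512 and 1230, and the replicate block with only 2 groups 4378 in IL10+ tumour against spleen Treg. Between IL10+ and IL10- tumour Treg 0 to 20 features were called over the settings (8 as reported), 0 to 526 in IL10+ against total tumour Treg (28) and 0 to 187 in IL10- against total tumour Treg (8), the highest of the last pair without IL10+ replicate 1; the cause was not tested. The replicate numbers paired the arrays only in part. Between IL10+ and IL10- tumour Treg the correlations of same-numbered deviations were 0.41, 0.43 and -0.24 for replicates 1, 2 and 3. Unlike numbers gave -0.57 to 0.30 there. In the other comparisons same-numbered correlations were -0.24 to 0.08. A replicate block in the fit of all arrays moved no class count by over 1.5 times. With 3 arrays a group and slide tied to group, small differences in dim probes could not be resolved.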
